A study of Mus musculus with 144 samples.

Results

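The nuclear-encoded genes of the respiratory chain and the ATP synthase were examined in single microglia of the mouse retina. Members were the protein-coding rows of the expression table named Nduf (without the assembly factors named Ndufaf), Uqcr, Cox4 to Cox8 or Atp5, together with Sdha, Sdhb, Sdhc, Sdhd, Cyc1 and Cycs. The names matched 90 rows, and 83 of them were measured, that is at 1 FPKM or more in at least 10% of the cells. FPKM counts the sequenced fragments of a gene per kilobase of its exons, scaled to the reads of the cell. Among the 83 measured members, mean level was still lower for longer genes (Spearman's rho of -0.49). Ranks of genes and complexes by level are therefore rough. The table has 55364 rows, of which 8695 were measured by the same rule. The measured members were 37 of complex I, 4 of complex II, 9 of complex III, 14 of complex IV, 18 of complex V and 1 for cytochrome c. Ndufa4, named for complex I, was placed in complex IV. Atp5o has 2 rows that overlap each other, so the 83 rows carry 82 symbols.

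The cells were sorted by fluorescence from retinas of 16-week-old Iba1-EGFP mice, a strain whose reporter marks microglia and related macrophages. No treatment is represented by 54 cells, and crush of the nerve by 54 cells taken on day 2 and 36 taken on day 4. The cells were spread over 3 plates with 18, 18 and 12 from the respective time points on each. Since every time point had rows of its own on a plate, position and time cannot be told apart. The labels name no animal, and each time point is therefore 1 sample of cells. No difference was tested, and the main pooled values are followed by those of the single plates, in the order of plates 1, 2 and 3. The labels give only a plate number and a well, so what else sets the plates apart is not known. Plates are read here as batches and not as replicates.

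The respiratory chain lies in the inner mitochondrial membrane. Complexes I and II pass electrons from NADH and succinate to ubiquinone, complex III passes them on to cytochrome c, and complex IV passes them to oxygen. Complexes I, III and IV pump protons, and complex V, the ATP synthase, makes ATP as the protons flow back. Most subunits are encoded in the nucleus and imported. Microglia that become activated are known to alter the balance of glycolysis and oxidative phosphorylation. Transcripts of the mitochondrial chromosome are not analysed here (0 rows of the table), so no statement is made on the subunits encoded there.

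All cells but 1, a cell of day 4, carried at least 3 of 10 microglia markers at 20 FPKM or more. Markers of at least 1 other cell type reached that mark in 17 untreated cells, 16 of day 2 and 7 of day 4. The depth of a cell, recovered from the step between low values, had a median of 5.31 M reads (M stands for 1e+06, range 0.190 to 18.9), and 3 cells had under 1 M. The median number of genes at 1 FPKM or more was 2793 for untreated cells, 3473 at day 2 and 3965 at day 4. No 2 cells held the same values (0 repeats).

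As a group the members stood higher after crush. The mean over cells of log2(FPKM + 1) was taken for each member and time point, and the members' median of this level was 2.99 for untreated cells, 4.02 at day 2 and 4.71 at day 4. The median over all measured genes was 0.93, 1.14 and 1.43. From day 2 to day 4 the members' median difference was 0.83, with 1.06, 1.11 and 0.25 in plates 1, 2 and 3, beside 0.25 for all measured genes (0.27, 0.41 and 0.03). A member was called higher when its pooled difference was at least 1 and its sign was positive in all 3 plates. At day 4 against day 2, 24 of 83 members were called higher, beside 9.57% of all measured genes, and 0 were called lower, beside 0.863%. Of these 24, 13 were among the 27 members whose values above 0 were mostly not whole numbers of reads (48.1% of the 27). The levels of those 27 members are uncertain. The other 11 were among the remaining 56 members (19.6%). Without plate 3, and with the sign asked only of the plates kept, 39 members were called higher, beside 18.5% of all measured genes. That rule is looser, so 39 and 24 are not counts by the same rule. The pooled difference was negative for 7 members. All 3 plates were negative for 2 members, beside 8.53% of all measured genes.

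The first interval gave a similar median. Day 2 against untreated cells, the members' median difference was 0.82 (0.49, 0.81 and 1.29 in plates 1, 2 and 3), beside 0.21 for all measured genes. At day 2, 30 of 83 members were called higher, beside 3.9% of all measured genes, and 0 lower, beside 0.0575%. Against untreated cells, day 4 had a median difference of 1.58 (1.24, 1.91 and 1.63), beside 0.45 for all measured genes, with 67 members called higher, beside 18.9%, and 0 lower, beside 0.345%. The 3 comparisons share cells, so their counts are not independent of each other. In plate 3 the members' median difference was larger in the first interval than in the second (1.29 and 0.25), and in plate 1 it was smaller (0.49 and 1.06).

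**Figure D1:**
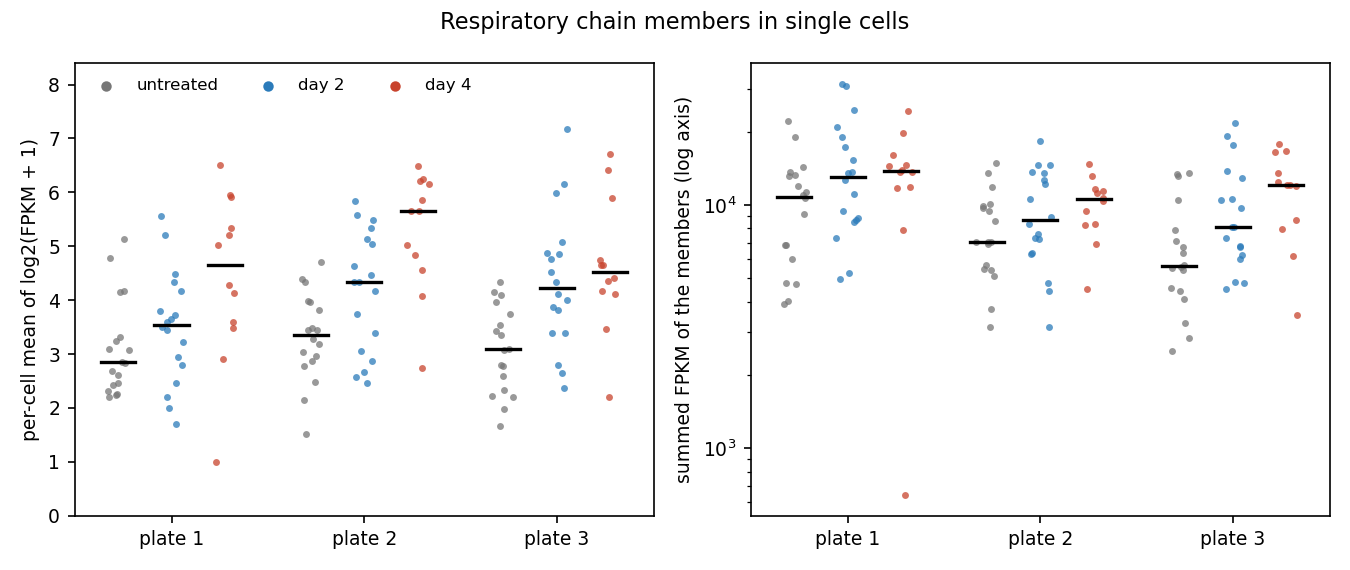
Each point is 1 cell, grouped by plate and time point. Left, the mean of log2(FPKM + 1) over the 83 members; right, their summed FPKM on a log axis; black bars are medians. On the left the day 4 median is the highest in each plate (4.65, 5.65 and 4.53), while on the right the groups overlap widely and 1 cell of day 4 on plate 1 lies far below the rest, at 640 FPKM.

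The scale of the comparison mattered for the second interval. Mean summed FPKM of the members was 8399 for untreated cells, 11430 at day 2 and 11737 at day 4. This is 1.36-fold from untreated to day 2, 1.40-fold from untreated to day 4, and 1.03-fold from day 2 to day 4. When each member's mean FPKM was taken before the logarithm, the members' median difference from day 2 to day 4 was 0.12, next to 0.10 for all measured genes. On that scale 2 of 83 members were called higher, a smaller share than the 10.4% of all measured genes. For day 2 against untreated cells the median was 0.63, next to 0.10 for all measured genes, with 8 members called higher, beside 8.03%. Of the 83 members, 54 had a higher and 29 a lower mean FPKM at day 4 than at day 2, whereas 77 had a higher median FPKM.

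The values of the members fell into low and high cells, and the pooled share of high cells grew with time. Of all member values, the share at 1 FPKM or more was 63.5% for untreated cells, 70.3% at day 2 and 77.5% at day 4. At 20 FPKM or more the shares were 32%, 45.2% and 60.2%, and for all measured genes 14.4%, 17.3% and 21.8%. In plates 1, 2 and 3 the members' shares at 20 FPKM were 31.7%, 49.9% and 54.1% at day 2. At day 4 they were 50.7%, 73.0% and 56.8%, so plate 3 changed little in the second interval. At 500 FPKM or more the members' shares were 4.89%, 6.74% and 6.16%, so that the share of very high values did not grow after day 2. The mark of 500 FPKM was chosen after the values were seen. With every cell thinned to 2 M reads, which left out 4, 9 and 0 shallower cells, the shares at 20 FPKM were 32%, 46.5% and 60.2%.

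**Figure D2:**
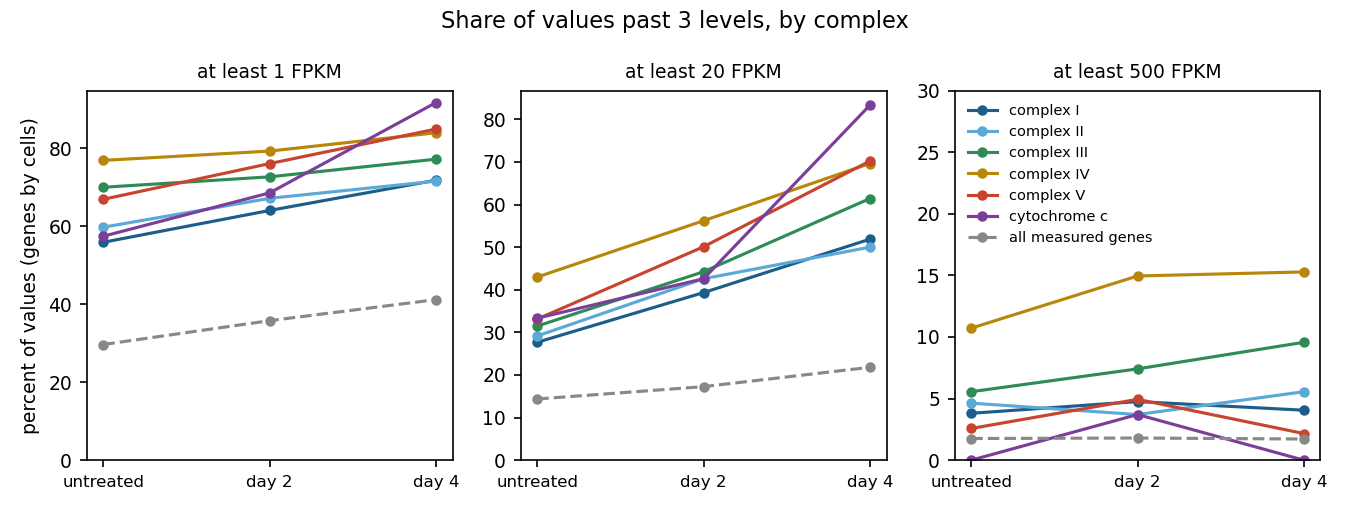
Percent of values (genes by cells) at or above 1, 20 and 500 FPKM at each time point, for each complex and, dashed, for all measured genes. Values are pooled over plates. At 20 FPKM every complex is higher at day 4 than at day 2, and at 500 FPKM complexes I and V and cytochrome c are lower at day 4 than at day 2. Within plate 3, not drawn, complexes I and II are lower at 20 FPKM at day 4 (46.6% and 54.2%) than at day 2 (47.7% and 63.9%).

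Cycs (chr6:50562563-50566538), which encodes cytochrome c, the soluble electron carrier between complexes III and IV, had the largest pooled difference of all members on this scale between day 2 and day 4. Gene spans are given on GRCm38 as deposited. Its FPKM ran from 0.0489 to 328 with a median of 1.30 in untreated cells, from 0.0232 to 823 with a median of 2.32 at day 2, and from 0.436 to 321 with a median of 104 at day 4. The ranges overlap, but most cells of day 4 lie in the upper part of them. At least 20 FPKM was reached by 18 of 54 cells without treatment, by 23 of 54 of day 2 (42.6%, exact Clopper-Pearson 95% interval 29.2 to 56.8) and 30 of 36 cells of day 4 (83.3%, 67.2 to 93.6). These intervals cover counting error only. Mean log2(FPKM + 1) of Cycs was 2.62 ± 2.68 (SD over 54 cells), 3.33 ± 2.85 (SD over 54 cells) and 5.87 ± 2.24 (SD over 36 cells), and day 4 exceeded day 2 by 2.55 (3.13, 1.78 and 2.74 in plates 1, 2 and 3). For day 2 against untreated cells the difference was 0.70. Of the Cycs values above 0, 97.2% were not whole reads, and Cycs is known to have near copies among processed pseudogenes, so its level is uncertain.

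Promoter sequence was available for some members. Of 82 member symbols, 67 matched the RefSeq promoter table (GRCm38.p6), which runs from 250 bases before to 50 bases after a gene's start. NRF1, nuclear respiratory factor 1, is a factor known for binding promoters of respiratory chain genes, and the letters GCATGCGC, or GCGCATGC on the other strand, are the core of its motif. Over the whole window they were found in 11 of the 67 members (16.4%), beside 3.05% of all 27025 genes in the table. Among members called higher at day 4 against day 2 they were present in 4 of 18, and among the others in 7 of 49. With only the 250 bases before the start, they were in 9 members (13.4%, beside 2.56%), the same 4 called members and 5 of the other 49. The promoters of these 4 called members are shown, and both the call and the letters were used to pick them. Whether the letters bear on the differences was not tested. Each line gives the 150 bases before the RefSeq start, 5′ to 3′ on the gene's strand, with the NRF1 letters in capitals. Where both strands match, in Atp5k and Atp5g2, the 2 matches overlap and form 1 run of capitals.
Cycs, chr6:50566570-50566719, minus strand: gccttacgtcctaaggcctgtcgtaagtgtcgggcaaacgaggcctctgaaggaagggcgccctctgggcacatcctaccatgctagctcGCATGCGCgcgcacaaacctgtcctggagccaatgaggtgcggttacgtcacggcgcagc
Atp5k, chr5:108434400-108434549, minus strand: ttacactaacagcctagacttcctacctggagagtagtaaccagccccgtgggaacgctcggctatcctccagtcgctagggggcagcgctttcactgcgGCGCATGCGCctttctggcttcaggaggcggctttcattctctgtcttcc
Atp5g2, chr15:102671048-102671197, minus strand: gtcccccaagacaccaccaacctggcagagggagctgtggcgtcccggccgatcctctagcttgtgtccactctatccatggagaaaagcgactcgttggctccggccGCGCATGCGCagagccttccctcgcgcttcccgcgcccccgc
Ndufa8, chr2:36049339-36049488, minus strand: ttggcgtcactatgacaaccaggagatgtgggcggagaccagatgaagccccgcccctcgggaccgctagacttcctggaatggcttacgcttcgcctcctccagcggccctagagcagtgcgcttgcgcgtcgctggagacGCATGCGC
The NRF1 letters lie 60 to 53 bases before the start in Cycs and 8 to 1 bases before it in Ndufa8.

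Other factors named with respiratory genes were searched for in the same way, on both strands. The YY1 letters AANATGGCG were in 10 of 67 members (14.9%), beside 2.76% of all genes, over the whole window, but in 3 (4.48%, beside 1.29%) before the start. The CRE letters TGACGTCA were in 5 (7.46%, beside 2.03%), the ETS letters CCGGAAGT in 5 (7.46%, beside 4.31%; before the start in 3, 4.48%, beside 3.23%) and the E-box letters CACGTG in 6 (8.96%, beside 8.09%). A match is a run of letters in a window and does not show that the factor binds there.

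Complex I, which takes electrons from NADH, had a median difference of 0.78 from day 2 to day 4 (0.98, 0.93 and 0.05 in plates 1, 2 and 3). Of its 37 members, 7 were called higher, beside 9.57% of all measured genes. Counts by complex below are to be read beside that share. Against untreated cells the share was 3.9% for day 2 and 18.9% for day 4. The 7 core subunits of complex I, those that carry out electron transfer, had a median of 0.87 and its 30 accessory subunits 0.61. Within plates the core subunits ran from -0.29 in plate 3 to 1.59 in plate 2. The members of complex I had the lowest median level of the 5 complexes at each time point when pooled over plates, namely 2.67 without treatment, 3.54 on day 2 and 4.32 on day 4, although close to those of complex II (2.93, 3.59 and 4.43). Single members ran from -0.98 to 1.78, with 4 below 0, and 10 of 37 were called higher at day 2 against untreated cells.

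Ndufv2 (chr17:66078638-66101559), a core subunit that holds an iron-sulfur cluster beside the NADH site, was called higher. Its FPKM had a median of 0.745 and a highest value of 739 for untreated cells, 1.38 and 451 at day 2, and 59.7 and 551 at day 4, with the lowest cell at 0 in each group. The cells of all groups overlap, and the high cells make up 13 of 54, 18 of 54 and 21 of 36 at 20 FPKM. The difference from day 2 to day 4 was 1.54 (2.32, 1.04 and 1.25). Ndufb6, an accessory subunit of the membrane arm, differed by 1.78, but by 0.29 in plate 3, and 63.7% of its values were not whole reads. Ndufa5, an accessory subunit of the peripheral arm, differed by 1.43 (1.5, 2.14 and 0.65). Ndufs7, a core subunit that holds the last iron-sulfur cluster before ubiquinone, differed by 1.42 and was not called, because plate 1 stood at -0.11. The other members of complex I called higher were Ndufab1, the mitochondrial acyl carrier protein, at 1.35 (0.82, 0.74 and 2.49), Ndufs4 at 1.23 (2.03, 0.77 and 0.88), Ndufb5 at 1.22 (1.10, 0.75 and 1.82) and Ndufa8 at 1.02 (1.11, 1.32 and 0.61).

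Ndufv3 (chr17:31520115-31531331), an accessory subunit of the NADH-binding part, ran the other way from day 2 to day 4. Its median FPKM was 0.545 for untreated cells, 11.3 at day 2 and 0.884 at day 4, with highest values of 375, 349 and 70.7. High cells were most frequent at day 2, with 25 of 54 cells at 20 FPKM, beside 14 of 54 untreated cells and 12 of 36 cells of day 4. Day 4 stood at -0.98 against day 2 (-1.11, -0.34 and -1.5), just short of the mark for a call, and day 2 was called higher than untreated cells, by 1.27 (2.07, 1.28 and 0.46). Ndufb9, an accessory subunit of the membrane arm, was also called higher at day 2, by 1.76, and then stood at -0.35 at day 4, with 1.13, -0.04 and -2.16 in the plates. Ndufc2, a membrane-arm subunit, was called higher at day 2 by 1.66, with a median FPKM of 4.30 in untreated cells and 95.1 at day 2, and differed by 0.51 from day 2 to day 4.

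**Figure D3:**
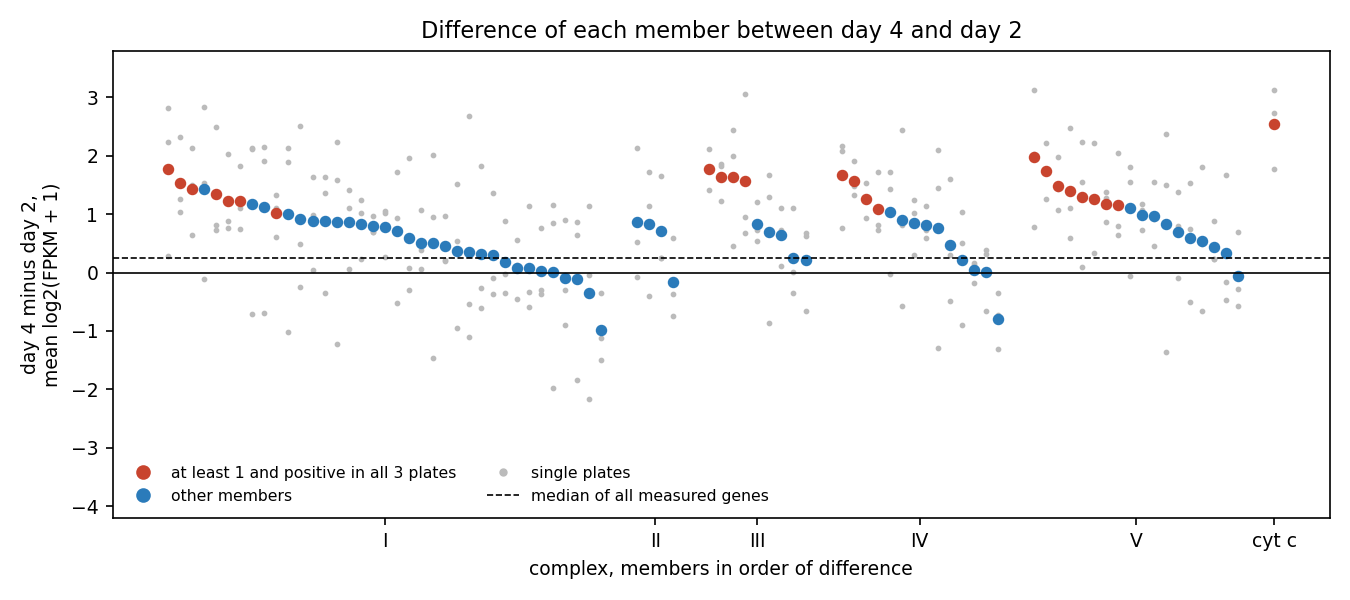
Difference of day 4 minus day 2 in mean log2(FPKM + 1) for each of the 83 members, ordered within complexes, with the values of the 3 plates as small grey points. Red points are the 24 members at 1 or more with all 3 plates positive, and the dashed line is the median of all measured genes, 0.25; Ndufv3 and Cox7a2l are the lowest points.

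Complex II, succinate dehydrogenase, is also an enzyme of the tricarboxylic acid cycle and has 4 subunits. None of the 4 was called higher from day 2 to day 4 (0 of 4). Sdha, the flavoprotein that oxidises succinate, differed by 0.86, but by -0.07 in plate 1. Sdhb, the iron-sulfur subunit, differed by 0.82, but by -0.39 in plate 3, and its median FPKM was 1.83, 7.80 and 120 at the 3 time points. Sdhc, a membrane anchor, differed by 0.72 (0.25, 1.65 and 0.25), and Sdhd, the other anchor, stood at -0.17 (-0.37, 0.60 and -0.74). From untreated cells to day 2, Sdhb and Sdhd were called higher, by 1.03 and 1.12. Summed mean FPKM of complex II was 414, 400 and 447, the smallest spread over time of the 5 complexes.

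Complex III, which passes electrons from ubiquinone to cytochrome c, had 4 of 9 members called higher at day 4 against day 2, with a median of 0.83 (1.21, 1.11 and 0.45). Single members ran from 0.21 to 1.77, and 3 of 9 were called higher at day 2 against untreated cells. The 4 called at day 4 were small or non-catalytic subunits. Uqcrq (chr11:53427922-53430831), a small subunit, had a median FPKM of 3.07 for untreated cells (0 to 531), 8.54 at day 2 (0.0355 to 2407) and 140 at day 4 (0.0581 to 599). At 20 FPKM or more were 19 of 54, 25 of 54 and 27 of 36 cells, and the single highest cell was at day 2. The difference of Uqcrq from day 2 to day 4 was 1.77 (1.79, 1.42 and 2.11). Uqcrb, the ubiquinone-binding protein, differed by 1.63 (2.00, 2.45 and 0.45), and Uqcr10, a small subunit, by 1.56 (0.68, 0.96 and 3.05).

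Uqcrc2, the core protein 2, differed by 1.64 (1.86, 1.23 and 1.83). It was a low gene, with a median FPKM of 0.267, 0.307 and 1.01 and 13 of 36 cells at 20 FPKM at day 4, beside 7 of 54 at day 2. The subunits that carry electrons were not called: Cyc1, cytochrome c1, differed by 0.83 (1.21, 0.73 and 0.54) and Uqcrfs1, the Rieske iron-sulfur protein, by 0.70 with -0.87 in plate 3. The smallest differences were those of Uqcrc1, the core protein 1, at 0.25 (-0.35, 1.10 and 0.01), and Uqcrh, the hinge protein, at 0.21 (0.68, 0.62 and -0.66). Uqcrh had been called higher from untreated cells to day 2, by 1.12.

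Complex IV, cytochrome c oxidase, had the highest pooled median level of the 5 complexes at each time point. Its members' median level was 3.76 for untreated cells, 4.52 at day 2 and 5.76 at day 4. Cox6a1, Cox8a, Cox6b1 and Cox4i1 led at day 4 with mean FPKM of 756, 706, 506 and 373, and the cells of each spread over more than those distances, so that their order is not resolved. From day 2 to day 4 the median difference was 0.84 (0.88, 1.09 and 0.21), and 4 of 14 members were called higher. At day 2 against untreated cells 5 were called. The 4 were Cox5a at 1.67 (2.08, 2.17 and 0.77), Cox5b at 1.58 (1.34, 1.48 and 1.91), Cox5b-ps at 1.25 and Cox6c at 1.09 (0.81, 0.73 and 1.72). Cox5a and Cox5b encode the matrix-side subunits. Cox5b-ps is a near copy of Cox5b, and 74.8% and 84.5% of the values of Cox5b and Cox5b-ps were not whole reads, so their reads cannot be separated.

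Some subunits of complex IV come in versions typical of different tissues. The widely expressed Cox4i1, Cox6b1, Cox7b and Cox8a and the liver-type Cox6a1 and Cox7a2 were all measured. Their counterparts Cox4i2, Cox6b2, Cox7a1, Cox7b2, Cox8b and Cox8c, and Ndufa4l2, the hypoxia-linked counterpart of Ndufa4, were not. Ndufa4l2, Cox7b2, Cox8b and Cox8c reached 1 FPKM in 0 cells, Cox6b2 in 1, Cox7a1 in 2 and Cox4i2 in 3. These are the members that fell outside the detection rule, and the nearest ones inside were Ndufs1 with 26 cells and Cox6a2, the muscle-type form, with 27.

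Exons of Cox6a2 overlap those of Itgad, and its median was 0 FPKM at each time point. Ndufa4 differed by 1.05 from day 2 to day 4 (1.43, 1.73 and -0.02). Cox6a1 differed by 0.86 (1.25, 0.30 and 1.02) and Cox8a by 0.82 (0.73, 1.14 and 0.60). The plates differed in sign for Cox7a2 at 0.90 (0.82, 2.44 and -0.57), Cox7b at 0.76 (2.11, 1.46 and -1.29), Cox4i1 at 0.22 (0.51, 1.04 and -0.90), Cox6b1 at 0.04 (-0.17, 0.17 and 0.13) and Cox6a2 at 0.01 (0.32, 0.39 and -0.66). Cox6b1, which lies where the monomers of the dimer meet, had been called higher from untreated cells to day 2, by 1.28, and Cox6a1 and Cox7b by 1.52 and 1.95. Cox7a2l (chr17:83501918-83517330), a relative of Cox7a2 known for holding complexes III and IV together in supercomplexes, stood apart. Its median FPKM was 2.57 for untreated cells, 6.94 at day 2 and 1.79 at day 4. Day 4 stood at -0.80 against day 2, with -1.30, -0.73 and -0.35 in the plates, short of the mark for a call. Cox7a2l and Ndufv3 were the 2 members with a negative sign in all 3 plates.

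**Figure D4:**
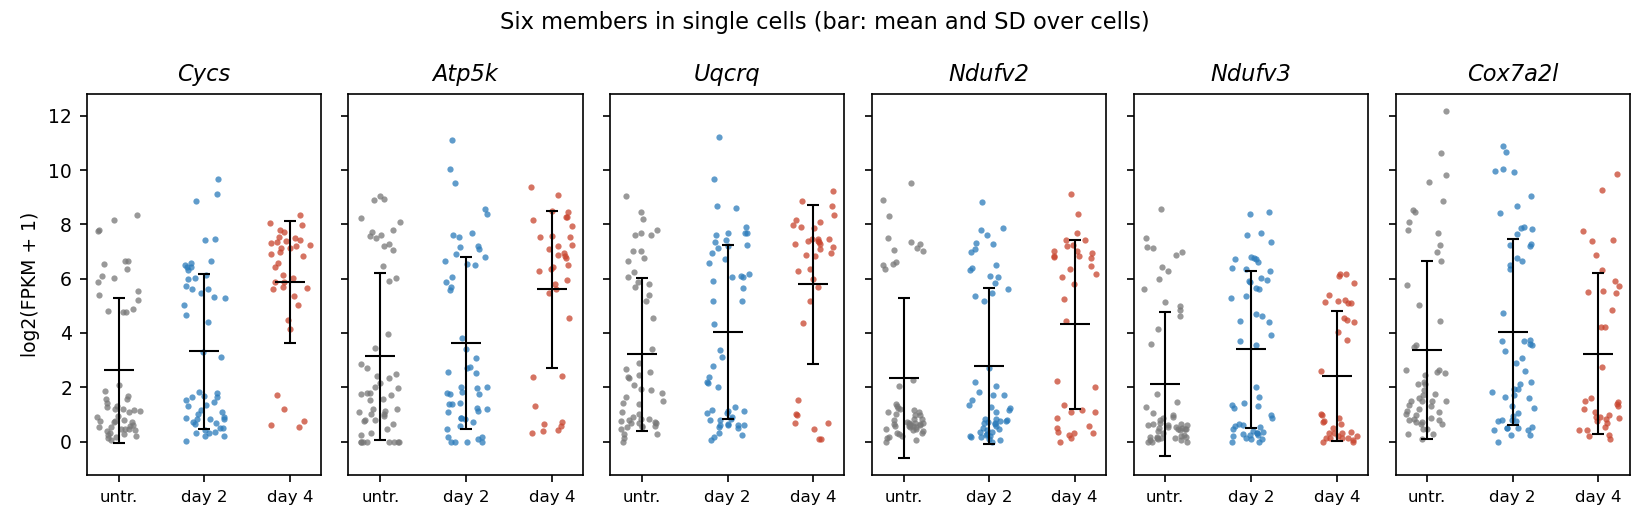
Each point is 1 cell, as log2(FPKM + 1), for Cycs, Atp5k, Uqcrq, Ndufv2, Ndufv3 and Cox7a2l at the 3 time points, with black bars for the mean and SD over cells. Cells form a low and a high cloud. For the left 4 genes the high cloud holds most cells at day 4. For Ndufv3 and Cox7a2l, 12 and 13 of 36 cells of day 4 are at 20 FPKM or more, beside 25 and 20 of 54 at day 2.

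Complex V, the ATP synthase, had a median difference of 1.05 from day 2 to day 4 (1.28, 1.35 and 0.55 in plates 1, 2 and 3), with 8 of 18 rows called higher. On log2 of the mean FPKM the median was 0.15. From untreated cells to day 2 the median was 1.04 with 10 rows called higher, and from untreated cells to day 4 it was 2.08 with 17. Single rows ran from -0.05 to 1.98 from day 2 to day 4. The 5 members of the catalytic F1 head had a median of 1.26 from untreated cells to day 2 (0.56, 0.98 and 1.57), with 5 called higher, and of 0.69 from day 2 to day 4 (0.23, 0.88 and 0.10), with 1 called higher. The c-ring that turns in the membrane gave 0.87 for the first interval and 1.26 for the second when pooled, but within each plate the first was the larger (1.53, 1.54 and 1.28 against 1.06, 1.42 and 0.65). The peripheral stalk gave 0.84 (0.82, 0.42 and 1.21) and 1.18 (1.38, 1.28 and 0.87). The other membrane subunits gave 0.55 (0.54, 0.99 and 1.55) and 0.99 (1.55, 1.53 and 0.73). In plate 3 the first interval was thus the larger for all 4 parts, and the difference between parts was not tested.

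Atp5k (chr5:108433244-108434448), the e subunit of the membrane part, had a median FPKM of 2.44 for untreated cells (0 to 533), 3.87 at day 2 (0 to 2223) and 98.9 at day 4 (0.249 to 667). At 20 FPKM or more were 16 of 54 and 20 of 54 cells, and then 27 of 36 cells at day 4 (75%, exact 95% interval 57.8 to 87.9). The groups overlap, and as for Uqcrq the highest single cell was at day 2. The difference of Atp5k from day 2 to day 4 was 1.98 (2.02, 3.12 and 0.78), and its promoter is among those printed with the NRF1 letters. Atp5o, the stalk protein that confers oligomycin sensitivity, differed by 1.74 (2.21, 1.74 and 1.26) in one row and 1.18 (1.38, 1.28 and 0.87) in the other. Of the values of the 2 Atp5o rows, 79.3% and 77.3% were not whole reads. Atp5j, coupling factor 6 of the stalk, differed by 1.40 (1.11, 0.60 and 2.48).

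Subunit c is encoded by 3 genes whose mature proteins are the same, and all 3 were called higher at day 4 against day 2. Atp5g1 differed by 1.49 (1.06, 1.42 and 1.98), with a median FPKM of 0.778, 7.60 and 37.8 at the 3 time points. Atp5g2 differed by 1.26 (2.21, 1.24 and 0.34), with medians of 1.64, 22 and 60.8. Atp5g3 differed by 1.16 (0.80, 2.04 and 0.65), with medians of 1.85, 45.4 and 92.7. All values of Atp5g3 above 0 were whole reads, whereas 69.0% of those of Atp5g1 and 87.3% of those of Atp5g2 were not. With the mean FPKM taken before the logarithm, Atp5g3 stood at -0.18.

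In the catalytic head, Atp5b, the beta subunit that binds and forms ATP, was called higher in both intervals, by 1.29 from untreated cells to day 2 and by 1.30 from day 2 to day 4, although by 0.10 in plate 3. Its median FPKM was 13.6, 87.7 and 186. Atp5c1, the gamma subunit that turns inside the head, was called higher at day 2 by 1.16 and stood at -0.05 from day 2 to day 4 (-0.58, 0.69 and -0.27). Atp5pb, the b subunit of the stalk, differed by 1.06 at day 2, where it was called, and by 0.34 from day 2 to day 4 (1.66, -0.47 and -0.16). The largest pooled difference of any member from untreated cells to day 2 was that of Atp5mpl, a small membrane subunit, at 2.41 (2.27, 2.53 and 2.42). At 20 FPKM or more were 9 of 54 untreated cells and 28 of 54 cells of day 2 for Atp5mpl, with median FPKM of 1.45 and 48.3.

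**Figure D5:**
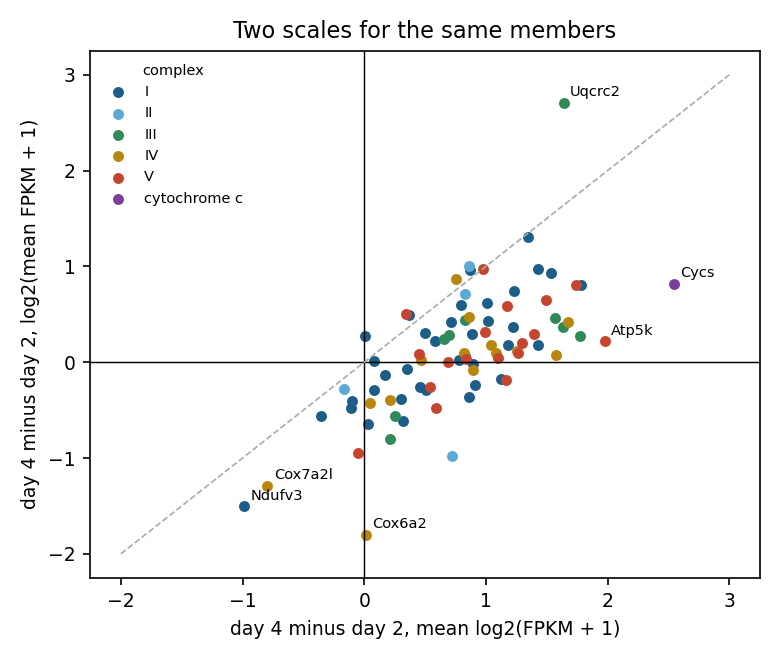
For each member, the difference of day 4 minus day 2 in the mean of log2(FPKM + 1) on the horizontal axis and in log2(mean FPKM + 1) on the vertical axis; the dashed line marks equal values. Most points lie to the right of the line, and Uqcrc2 is the point far above it.

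Within a time point the cells spread widely. The mean of log2(FPKM + 1) over the 83 members was 3.17 ± 0.83 per untreated cell (SD over 54 cells, 1.52 to 5.13), 4.00 ± 1.18 at day 2 (54 cells, 1.70 to 7.17) and 4.80 ± 1.33 at day 4 (36 cells, 0.996 to 6.71). With cells thinned to 2 M reads the means were 3.14, 3.97 and 4.79. The median number of members at 1 FPKM or more was 53 for untreated cells, 60.5 at day 2 and 65 at day 4. Across all cells the members' mean followed the number of genes detected in the cell (Pearson's r of 0.83) and hardly the number of reads (0.12), values that share the same libraries. Within untreated cells, day 2 and day 4 the first of these was 0.74, 0.81 and 0.82. The number of detected genes itself differed between time points, and with that number as a covariate the members' median difference from day 2 to day 4 was 0.39, next to 0.075 for all measured genes, with 12 members called higher, beside 4.85%.

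The complexes varied together from cell to cell. Across all cells the means of complexes I and V had a Pearson's r of 0.83, complexes I and III 0.75, and complexes I and IV 0.73. Complex II was the least tied to the others, with 0.49 to complex I and 0.41 to complex IV. Its mean covers only 4 members, beside 37 for complex I, and whether that alone gives the lower values was not tested. The median over pairs of single members was 0.17, and these values all share the cells' detected genes and are given as descriptions.

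By the rule of likeness, the genes outside the group with the highest Pearson's r to the members' mean over all cells were Pkm (0.58), Mir686 (0.58), Ddx39 (0.57), Tpi1 (0.57) and Psmb5 (0.57). Within time point and plate the values were 0.49, 0.49, 0.42, 0.52 and 0.47. Pkm and Tpi1 encode glycolytic enzymes, Ddx39 an RNA helicase and Psmb5 a catalytic subunit of the proteasome. Of the values of Pkm, 87.5% were not whole reads.

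The other genes of energy metabolism were read from lists. Counts of calls in all lists are to be read beside the 9.57% of all measured genes called higher at day 4 against day 2. Shares near it were 15.4% for the tricarboxylic acid cycle, 14.5% for cytosolic ribosomal proteins, 9.09% for carriers and 6.67% for complex IV assembly. Of the mitochondrial import machinery and chaperones, 12 of 19 measured genes were called higher at day 4 against day 2, with a median of 1.43, and the largest were Phb, a prohibitin, at 2.45 and Timm23, the channel of the inner membrane, at 2.39. Of glycolysis, 8 of 11 were called higher, with a median of 1.37, led by Ldha, lactate dehydrogenase A, at 2.27 and Pkm, pyruvate kinase, at 2.00. For both lists the difference from untreated cells to day 2 was smaller, at 0.31 and 0.68. Of the tricarboxylic acid cycle, 2 of 13 were called higher with a median of 0.82, namely Ogdh at 1.42 and Suclg2 at 1.40, while Mdh2 differed by 1.41 and was not called, with -1.29 in plate 3. Of mitochondrial ribosomal proteins, 15 of 70 were called higher with a median of 0.60, led by Mrpl18 at 2.21 and Mrps14 at 1.91. Of cytosolic ribosomal proteins, 11 of 76 were called higher with a median of 0.37 (-0.18 on log2 of the mean FPKM), led by Rpl38 at 2.04 and Rps15 at 1.68.

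Carriers gave 1 of 11 with a median of 0.76, the porin Vdac1 at 1.06, and the uncoupling protein gene Ucp2 stood at -0.90. Antioxidant enzymes of mitochondria gave 2 of 7 with a median of 0.73, Txn2 at 1.48 and Prdx3 at 1.27. Genes of pyruvate entry gave 0 of 7 with a median of 0.66, with Pdk3 at 0.98 and Mpc1 at 0.85. Assembly factors of complex I gave 0 of 3 with a median of 0.27 (0.45, 0.11 and 0.18), with Ndufaf8 at 0.54 and Ndufaf3 at -0.32. Those of complexes II, III and V gave 0 of 8 with a median of 0.61 (-0.01, 0.86 and -0.27), with Uqcc2 at 1.01 and Atpaf2 at 0.92, and those of complex IV 1 of 15 with a median of 0.22 (0.08, 0.58 and -0.02; -0.14 on log2 of the mean FPKM and -0.039 with the covariate), Cox17, the copper chaperone, at 1.45 and Pet100 at 1.28. Regulators of mitochondrial biogenesis gave 0 of 8 with a median of 0.16 (0.02, 0.51 and -0.33). Among them Gabpa differed by 0.47 and Nrf1, whose product binds the letters printed above, by 0.38, with a mean log2(FPKM + 1) of 0.69, 0.38 and 0.76 at the 3 time points. No gene of these 12 lists was called lower at day 4 against day 2 (0 genes), beside 0.863% of all measured genes, itself a small share.

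The members' difference from day 2 to day 4 was no smaller without cells that carried markers of other cell types, while fewer members were called from untreated cells to day 2. With the 40 cells left out that had at least 3 markers of another cell type at 20 FPKM, the members' median difference from day 2 to day 4 was 1.12, and 40 of 83 were called higher, beside 15% of all measured genes. For day 2 against untreated cells, leaving those cells out gave 12 called higher, beside 3.16%, in place of 30. The most frequent were Müller glia markers (at least 3 of 8 in 9, 7 and 5 cells, summed FPKM from 17.8 to 55087 in untreated cells, 25.5 to 53940 at day 2 and 19.3 to 28185 at day 4), some of which microglia also express. Border macrophage markers came next, with at least 3 of 8 in 5, 8 and 2 cells.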

How the data were processed

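Single sorted cells were lysed, and cDNA was amplified and turned into libraries by tagmentation, per the labels' protocols. The processing notes of the submitters list STAR 2.7.2b, featureCounts 1.6.1, cutadapt 1.16, Trimmomatic 0.36 and Trim Galore 0.4.4, with the builds GRCm38.p6 and mm10. How they were set is not given in the sources used here. What the authors deposited are FPKM values, which times gene length sum to 1e+09 in every cell. A median of 59.4% of values above 0 were whole reads (tolerance 0.01 read), so no count model was fitted.

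Members and lists were chosen with earlier results of these data known. Means of log2(FPKM + 1), a scale that understates the change of low genes, were compared between the 3 time points, pooled and within plates, with Python 3.11.15, numpy 2.4.6 and pandas 2.3.3. Because each time point is 1 sample, no p-value was computed. A call needed a difference of at least 1 and the same sign in 3 plates; the share of all measured genes that met it stands beside each first count. The members named were, per complex, the 4 with the largest and the 2 with the smallest difference of day 4 against day 2, all tissue or copy versions of a subunit, 2 genes per related list and the 5 most alike genes. Others, among them Cyc1, Uqcrfs1, Ndufc2, Atp5b, Atp5mpl, Suclg2, Ucp2 and the remaining called members of complex I, were added after their values were seen. Members with exons that overlap another row (32 of 83), or with over 50% of values not whole reads (27 of 83), are uncertain. The procedure was also run on simulated cells, with changes much larger than the mark for a call and no plate effect. That run therefore does not show how the call performs for differences near the mark. Alternatives were other pseudocounts, filters and scales, plates or cells left out, and a covariate for the genes detected per cell.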

Additional observations from a re-analysis of the deposited data

How the results depend on the processing

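Every value is from 1 sample of cells per time point, so the plates are the only check, and depth limits the values of low members most. Plate numbers are shared by the time points, but because the plates are balanced, plate as a replicate block gave the same members' median of 0.83 and the same 24 calls from day 2 to day 4, and it changed no other call. The members' median kept its sign under all alternatives run in all 3 comparisons. Values of the members and lists that moved by less than the spread over plates or, for counts, less than 1.5 times are left out below. The cause of the changes below was not tested.

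With log2 of the mean FPKM, the members' median was 0.12 from day 2 to day 4 and 0.65 from untreated cells to day 4, and the members called higher were 2 from day 2 to day 4, 8 from untreated cells to day 2 and 20 from untreated cells to day 4, beside 10.4%, 8.03% and 13.4% of all measured genes. Complexes I, III, IV and V and cytochrome c gave 0.062, 0.29, 0.085, 0.15 and 0.82. Glycolysis gave 0.75, import 0.92, carriers 0.24, antioxidants 0.26, pyruvate entry 0.10, complex I assembly 0.81, complex IV assembly -0.14 and cytosolic ribosomal proteins -0.18, and Atp5g3 gave -0.18. With a covariate for the genes detected per cell, the members' median was 0.35 from untreated cells to day 2 and 0.81 to day 4, with 12, 6 and 24 called higher (day 4 against day 2, day 2 and day 4 against untreated), beside 4.85%, 0.932% and 5.90% of all measured genes. Complex III gave 0.38, carriers 0.37, complex I assembly 0.027, complex IV assembly -0.039, cytosolic ribosomal proteins 0.19, import 0.92 and pyruvate entry 0.45. With cells rescaled by their median ratio, the calls were 14, 12 and 30 in that order (beside 5.14%, 1.21% and 7.36%), the median from untreated cells to day 4 was 0.92, carriers gave 0.41, cytosolic ribosomal proteins 0.011, antioxidants 0.34 and pyruvate entry 0.43. Members called lower from day 2 to day 4, 0 as reported, were 2 with the covariate and after rescaling, and 1 with log2 of the mean FPKM, with a pseudocount of 0.1 and without each plate in turn. In the other comparisons 1 was called lower with log2 of the mean FPKM and without the cells with markers (day 2 against untreated) and without plate 3 (day 4 against untreated). The share of all measured genes called lower was not computed under these alternatives. Whether these counts of lower members exceed it is therefore not known. The members' median less that of all measured genes was 0.015 on log2 of the mean FPKM from day 2 to day 4, and from untreated cells to day 4 it was 0.47 on that scale, 0.75 with the covariate, 0.78 after rescaling, 0.85 with a pseudocount of 10, 0.88 with at least 30% of cells and 1.5 with no filter.

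With a pseudocount of 10, the calls were 8, 6 and 37 (beside 2.58%, 0.587% and 5.21%), the median from untreated cells to day 4 was 0.99, complex V gave 0.55, cytochrome c 1.55, carriers 0.41, cytosolic ribosomal proteins 0.24, import 0.83 and pyruvate entry 0.30. With 0.1, the median from untreated cells to day 4 was 1.92, import gave 2.06 and pyruvate entry 0.90. With no filter on low values, complex IV gave 0.22 and pyruvate entry 0.43, and with at least 30% of cells complex I assembly gave -0.32. With only genes of which at most 50% of values were not whole reads, the calls were 11 from day 2 to day 4 and 44 from untreated cells to day 4, of 56 members (beside 9.68% and 18.9%), and pyruvate entry gave 0.43. Without the 40 cells with markers of another cell type, the calls were 40 from day 2 to day 4 and 12 from untreated cells to day 2 (beside 15% and 3.16%), complex III gave 1.73, complex I assembly 0.46 and cytosolic ribosomal proteins 0.54.

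With a plate left out, a call asked for the same sign only in the plates kept, which is a looser rule. Without plate 1, antioxidants gave 0.32. Without plate 2, carriers gave 0.29, pyruvate entry 0.45, assembly of complexes II, III and V -0.15, complex IV assembly -0.0599 and biogenesis regulators -0.012. Without plate 3, the calls from day 2 to day 4 were 39 (beside 18.5%), antioxidants gave 1.20 and pyruvate entry 0.39. The members' median from day 2 to day 4 ran from 0.64 to 1 over the 3 plates left out. Of the 18 named members called higher from day 2 to day 4, 17, 17 and 15 were called without plates 1, 2 and 3, 9 with the covariate, 13 after rescaling and 1 on log2 of the mean FPKM. These 18 were picked as positive in every plate of the same cells. With a plate left out, only the size of their difference could fail, so the first 3 counts are no independent check.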
